A study of Mus musculus with 4 samples.

Results

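The cell cycle genes described here are 53 genes, 25 of DNA replication and entry into S phase (Mcm2 to Ccne2) and 28 of mitosis (Mki67 to Foxm1), out of 18193 genes with a probe set of their own on the array. They were listed by symbol, and each gene was read from its brightest probe set. RNA came from mouse primary intestinal epithelial cells, grown from isolated crypts on fibronectin in medium with 2.5% FBS and insulin. Each of 4 groups gave 1 Affymetrix array: untreated cells, cells given interleukin-17A (IL-17A, 50 ng/ml) for 6 h, cells given fibroblast growth factor 2 (FGF2, 5 ng/ml) for 6 h, and cells given both factors for 6 h, for which no separate doses are stated. No genotype, strain or animal age was given in the sources used here, and the age of the cultures at harvest was not given either. The series asks how the factors work together in repair of the epithelium, as its title states.

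A cell divides in a fixed order of steps. In G1 the transcription factor E2F1 and cyclin E prepare DNA synthesis, and the MCM helicase is loaded on origins by CDC6 and CDT1. In S phase polymerases copy the DNA with a ring of PCNA as sliding clamp. In G2 and M, CDK1 with cyclins A and B drives chromosome condensation and spindle assembly, the checkpoint proteins of the kinetochore watch attachment, and the anaphase promoting complex then ends mitosis by degrading the cyclins. Genes of the first set are classic targets of E2F, and those of the second are classic targets of the MuvB complex with B-MYB and FOXM1, which binds the cell cycle genes homology region (CHR). In the intestine dividing cells sit in the crypt, and division stops as cells become enterocytes.

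Promoters of the members differ in the words they hold, which the choice of members did not use. Since the groups are the classic targets named above, the E2F and CHR shares are not independent of the grouping. RefSeq windows of 300 bases (250 before the start and 50 after it, GRCm38.p6) were at hand for 44 of the 53 genes, and the first window listed for a gene was searched on both strands. An E2F word (the word TTCCCGC, or one of its variants: the word TTGGCGC, the word TTGCCGC, or the word TTCGCGC) was found in 13 of 21 replication promoters (61.9%), in 4 of 23 mitotic promoters (17.4%) and in 16.8% of the promoters of 9872 measured genes. The CHR word TTTGAA was found in 2 of 21 replication promoters (9.52%), in 17 of 23 mitotic promoters (73.9%) and in 11.7% of those of measured genes. CCAAT, the word bound by NF-Y, was found in 13 of 21 (61.9%), 18 of 23 (78.3%) and 38.3%. An E2F match overlapped a CCAAT match in 3 members, a CHR match overlapped one in 1 member, and no E2F match overlapped a CHR match (0 members). A match is a run of letters and not a measured binding site.

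Below are the 250 bases before the start of 3 replication and 3 mitotic genes, shown because they carry the word of their group and lie wholly outside the annotated gene. They are the members with the highest ratios in the arrays with FGF2 among those that qualify. Capitals mark the E2F word, on either strand, in the first 3 (Uhrf1 at chr17:56303087-56303336, plus strand, Rfc3 at chr5:151651209-151651458, minus strand and Rrm2 at chr12:24708004-24708253, plus strand) and the CHR word, on either strand, in the others (Ube2c at chr2:164769679-164769928, plus strand, Cdc20 at chr4:118437344-118437593, minus strand and Cdk1 at chr10:69352913-69353162, minus strand).
Uhrf1: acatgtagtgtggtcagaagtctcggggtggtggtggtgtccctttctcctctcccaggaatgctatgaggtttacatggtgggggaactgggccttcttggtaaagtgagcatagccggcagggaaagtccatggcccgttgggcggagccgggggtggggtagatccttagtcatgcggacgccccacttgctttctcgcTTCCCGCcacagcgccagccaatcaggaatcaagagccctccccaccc
Rfc3: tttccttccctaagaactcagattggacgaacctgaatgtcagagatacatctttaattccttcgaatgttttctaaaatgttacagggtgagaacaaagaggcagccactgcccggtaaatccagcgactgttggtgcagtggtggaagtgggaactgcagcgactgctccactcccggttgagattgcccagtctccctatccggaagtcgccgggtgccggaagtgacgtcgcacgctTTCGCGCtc
Rrm2: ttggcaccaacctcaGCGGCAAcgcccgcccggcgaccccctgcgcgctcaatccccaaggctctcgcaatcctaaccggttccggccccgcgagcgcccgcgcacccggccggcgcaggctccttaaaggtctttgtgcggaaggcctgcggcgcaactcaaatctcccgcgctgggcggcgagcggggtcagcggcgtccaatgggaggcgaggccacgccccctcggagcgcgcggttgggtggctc
Ube2c: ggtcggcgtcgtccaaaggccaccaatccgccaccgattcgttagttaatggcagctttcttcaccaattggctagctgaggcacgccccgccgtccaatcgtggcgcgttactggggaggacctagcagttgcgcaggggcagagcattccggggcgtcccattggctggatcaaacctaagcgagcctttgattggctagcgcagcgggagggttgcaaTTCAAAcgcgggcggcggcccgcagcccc
Cdc20: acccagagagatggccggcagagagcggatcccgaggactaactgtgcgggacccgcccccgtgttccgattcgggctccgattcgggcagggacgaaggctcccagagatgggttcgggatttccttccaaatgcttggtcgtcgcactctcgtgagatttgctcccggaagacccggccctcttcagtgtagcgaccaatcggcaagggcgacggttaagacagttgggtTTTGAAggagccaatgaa
Cdk1: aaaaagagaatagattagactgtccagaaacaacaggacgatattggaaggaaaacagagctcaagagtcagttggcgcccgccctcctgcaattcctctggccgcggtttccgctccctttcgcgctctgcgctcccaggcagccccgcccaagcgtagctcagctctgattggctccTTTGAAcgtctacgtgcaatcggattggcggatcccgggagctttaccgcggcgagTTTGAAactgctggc
The E2F word began 48 bases before the start in Uhrf1, 9 before it in Rfc3 and 235 before it in Rrm2. The CHR word began 29 bases before the start in Ube2c, 18 before it in Cdc20, and 71 and 15 before it in Cdk1.

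**Figure D1:**
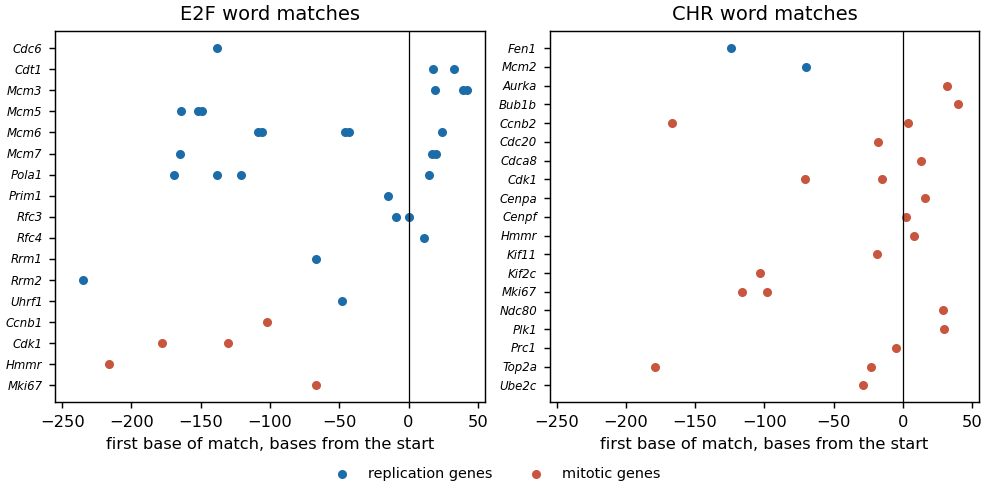
Positions of E2F words (left) and CHR words (right) in the promoters of the members that hold one, in bases from the gene start (0), with replication genes in blue and mitotic genes in red. The E2F panel holds 13 replication and 4 mitotic genes, and the CHR panel 2 replication and 17 mitotic genes.

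Of the 53 genes, 52 had a probe set naming that gene alone, Ccnb1 being the exception, and 51 were measured, that is over the floor of 89.8 (the median of all signals) on at least 1 array: 24 replication and 27 mitotic genes. Tyms, for thymidylate synthase, had signals of 62.05, 37.6, 47.2 and 65.3, all under the floor, and has no ratio. Signals are always given in the order untreated cells, IL-17A, FGF2, both factors. With 1 array per group no difference has a replicate check, and no p-value is given. As a yardstick of error, FGF2 was read in 2 array pairs with no array in common (FGF2 against untreated, and both factors against IL-17A). Disagreement between the pairs holds any interaction of the factors as well as error, and these cannot be told apart. Over all measured genes it put the SD of a log2 ratio at 0.29 in the dimmest brightness class (mean log2 below 8). It was 0.20 between 8 and 10, 0.13 between 10 and 12, and 0.09 in the brightest class.

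The arrays with FGF2 had the higher signals for most of these genes, and by modest amounts. Both arrays with FGF2 were above both arrays without it in 18 of 24 replication genes and 22 of 27 mitotic genes, together 40 of 51, against 24.6% of all 12258 measured genes. The arrays on each side differ in IL-17A and are not replicates. They were below in 1 of 51 genes, Fen1 (24.2% of measured genes). FGF2 alone gave a median log2 ratio to untreated cells of 0.32 for replication genes and 0.29 for mitotic genes, against -0.01 for all measured genes. Read in the presence of IL-17A, the medians were 0.31 and 0.32, against 0 for all measured genes. In 28 of 51 members both readings were above the yardstick SD for their brightness, against 10.7% of measured genes.

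**Figure D2:**
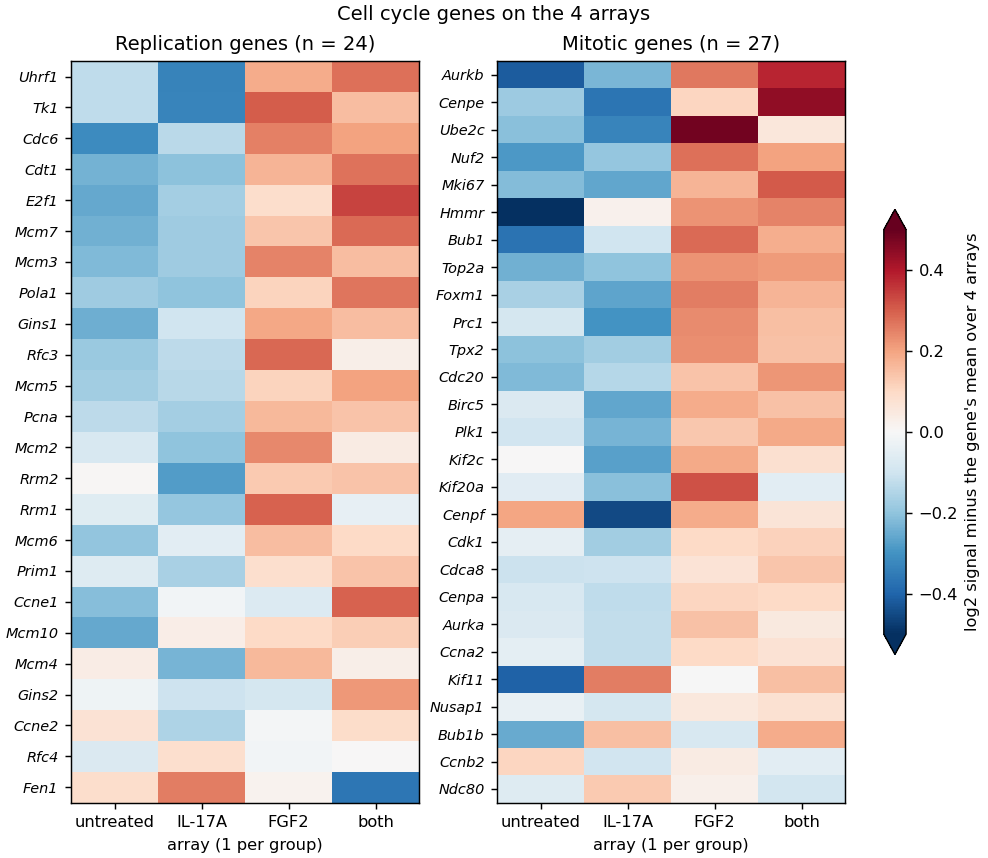
Heat map of log2 signal minus each gene's mean over the 4 arrays, for 24 replication genes (left) and 27 mitotic genes (right), ordered by the mean of both FGF2 log2 ratios. Red cells (above the mean) fill most of the FGF2 and combined columns, and blue cells most of the untreated and IL-17A columns. Fen1 is lowest with both factors, and Rfc4, Kif11, Bub1b and Ndc80 are highest or close to highest with IL-17A.

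Folds were small for each gene. With FGF2 alone, 24 of 51 members were at least 25% higher than in untreated cells (8.81% of measured genes) and 0 were lower by the same fold, which is 20% (14.6%). At least 1.5-fold higher were 4 of 51, Ube2c, Aurkb, Bub1 and Hmmr (2.34%), and 0 of 51 reached 2-fold (0.473%). With both factors, 23 of 51 were at least 25% above untreated cells (10.6% of measured genes) and 1, Fen1, at least 20% below (16.2%). At least 1.5-fold higher were 4, E2f1, Aurkb, Cenpe and Hmmr (3.34%). Both factors against IL-17A gave 24 of 51 (9.72%) and 1, Fen1 again (12.9%), with 3 at least 1.5-fold higher, Uhrf1, Aurkb and Cenpe (2.8%). In 15 members, 6 of replication and 9 of mitosis, both FGF2 readings were at least 25% higher, against 3.73% of measured genes. These were Mcm3, Mcm7, Cdc6, Cdt1, Tk1, E2f1, Mki67, Top2a, Ube2c, Cdc20, Aurkb, Tpx2, Prc1, Nuf2 and Foxm1. The highest array was FGF2 for 23 members (21.9% of measured genes) and the combined array for 22 (28%).

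**Figure D3:**
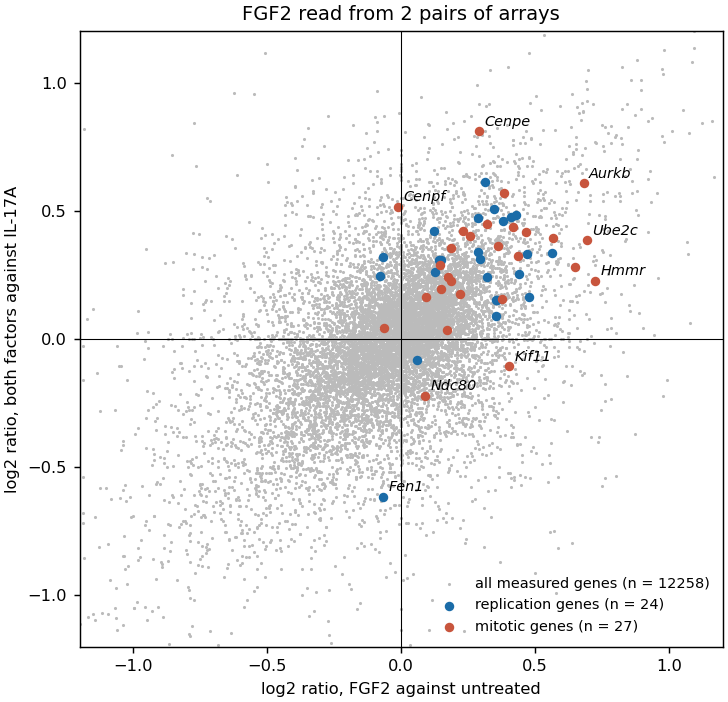
Each point is a gene, with the log2 ratio of FGF2 against untreated on the x axis and of both factors against IL-17A on the y axis, for all 12258 measured genes (grey), 24 replication genes (blue) and 27 mitotic genes (red). Axes end at 1.2 in either direction, so grey points beyond are not drawn. The members lie mostly in the upper right part, above 0 on both axes, where 43 of the 51 are found (31.6% of measured genes), and Fen1 is in the lower left.

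The MCM helicase, the ring of MCM2 to MCM7 that unwinds DNA at the fork, had 6 measured genes, of which 5 had both FGF2 arrays above both others. Mcm7 had signals of 2812 on the untreated array, 2942 with IL-17A, 3657 with FGF2 and 4042 with both. Its FGF2 readings were 1.30-fold and 1.37-fold, and the arrays without FGF2 did not overlap those with it. Mcm3 had 964, 994, 1337 and 1250 in that order, 1.39- and 1.26-fold. Mcm5 (1034, 1061, 1263 and 1343) and Mcm6 (2025, 2238, 2588 and 2488) kept the same split, as did Mcm2 (741, 680, 924 and 805). Mcm4 did not: with 2206, 1833, 2409 and 2197 its combined array lay just under the untreated array.

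Other probe sets of these genes bear on the split. Over all members, 33 further probe sets of 26 genes were over the floor on every array; 17 of them had both FGF2 arrays above both others, 1 had them below, and 28 had a mean FGF2 log2 ratio above 0. The sign of that mean differed between probe sets for 7 genes: Mcm2, Mcm3, Mcm4, Mcm6, Rfc4, Fen1 and Hmmr. A further Mcm4 probe set of similar brightness gave 2066, 2167, 1697 and 1800, which is lower on both FGF2 arrays (log2 ratios of -0.28 and -0.27). For Mcm2 the second probe set gave 618, 651, 500 and 796, and its FGF2 readings had opposite signs. For Mcm6 the second probe set over the floor gave 1681, 1538, 1555 and 1505, lower in both readings (log2 -0.11 and -0.03). A dimmer Mcm3 probe set was also lower in both (log2 -0.24 and -0.29), while others of Mcm3 had both FGF2 arrays above. The direction for Mcm2, Mcm3, Mcm4 and Mcm6 depends on the probe set, and which one is nearer the transcript was not tested.

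Helicase loading and origin firing followed the same split in 4 of 5 genes. Cdc6, which loads the helicase on origins, had signals of 206, 233, 305 and 294, so its FGF2 readings were 1.48- and 1.26-fold. Cdt1, its partner in loading, had 1788, 1827, 2372 and 2543, 1.33- and 1.39-fold, and its other probe set gave log2 ratios of 0.42 and 0.63. Gins1, a subunit of the GINS complex of the active helicase, had 267, 295, 362 and 352. Mcm10, a firing factor, had 206, 252, 263 and 268, where the IL-17A array was near the arrays with FGF2. Gins2, another GINS subunit, was highest with both factors only, at 418, 394, 399 and 492.

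Pcna, the sliding clamp, had signals of 7728, 7526, 9475 and 9345. Its readings of 1.23- and 1.24-fold were close to each other, in a brightness class with a yardstick SD of 0.09. Rfc3, a subunit of the clamp loader, had 242, 252, 337 and 282, and the loader subunit Rfc4 560, 623, 583 and 590, with no split. A second Rfc4 probe set gave 314, 312, 371 and 419, in which both FGF2 arrays were above the others. The second Rfc3 probe set gave 291, 239, 274 and 274, with no split (log2 ratios of -0.08 and 0.20).

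Among genes of DNA synthesis, Pola1, the catalytic subunit of polymerase alpha, had 325, 320, 397 and 443 (1.22- and 1.39-fold), and the primase gene Prim1 711, 664, 789 and 822 (1.11- and 1.24-fold). The second Prim1 probe set gave 465, 376, 364 and 487, and its FGF2 readings had opposite signs (log2 -0.35 and 0.37). Fen1, the flap nuclease that trims lagging-strand fragments, went the other way in its brightest probe set, with 892, 1003, 851 and 654, so that it was 1.05-fold lower with FGF2 alone and 1.53-fold lower with both factors than with IL-17A. Its other probe set gave 468, 501, 659 and 629, with log2 ratios of 0.49 and 0.33. The brighter probe set has an identifier ending (_x_at) given to sets that can detect other transcripts, and the direction for Fen1 depends on the probe set. The sets used for Mcm5, Rrm2, Ccne1, Cdc20, Aurkb and Kif2c have the same ending, so that limit holds for them too.

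Nucleotide supply and S phase entry came next. Tk1, thymidine kinase, had 252, 219, 339 and 306, which is 1.35- and 1.40-fold. Rrm1 and Rrm2, the subunits of ribonucleotide reductase, had 1908, 1740, 2444 and 1932, and 3451, 2830, 3757 and 3790. Rrm1 on the combined array was level with untreated cells, while Rrm2 was lowest with IL-17A alone. The second Rrm1 probe set was high on the FGF2 array alone, at 542, 676, 960 and 519, with readings of opposite sign (log2 0.83 and -0.38). Uhrf1, which carries DNA methylation marks through replication, had 733, 635, 912 and 971 (1.24- and 1.53-fold). Its dimmer probe set, under the floor on the untreated array, gave 78.94, 148.2, 189.1 and 99.43, with readings of opposite sign (log2 1.07 and -0.58). E2f1 had 136, 144, 173 and 205 (1.27- and 1.42-fold). For E2f1 the highest array was the combined one, 1.51-fold above untreated cells.

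The cyclin E genes behaved apart from E2f1. Ccne1 had 304, 349, 336 and 433 and was higher with IL-17A in both pairs (1.15- and 1.29-fold), and Ccne2 had 356, 305, 337 and 361, within the yardstick of the untreated array in each comparison with it except IL-17A alone (log2 -0.22). Only the combined array of Ccne1 stood apart, at 1.42-fold above untreated cells.

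Mitotic genes showed the same split. Mki67, whose product coats mitotic chromosomes and marks cycling cells, had 1088, 1054, 1421 and 1565 (1.31- and 1.48-fold), and Top2a, which untangles sister chromatids, 986, 1011, 1360 and 1349 (1.38- and 1.33-fold). Of the 7 cyclin, kinase and FOXM1 genes, 6 were measured and 5 had both FGF2 arrays above the others. Foxm1, the transcription factor of this set, had 190, 177, 254 and 240 (1.34- and 1.35-fold).

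Folds were smaller for Cdk1 and Aurka. Cdk1 had 1357, 1242, 1502 and 1517 (1.11- and 1.22-fold), Plk1 307, 280, 361 and 374 (1.17- and 1.34-fold), and Aurka, the kinase of the spindle poles, 433, 418, 505 and 471 (1.17- and 1.13-fold). Ccna2, cyclin A2, had 874, 828, 968 and 949, and Ccnb2, cyclin B2, had 546, 474, 522 and 489, with its highest value in untreated cells. Ccnb2 has 1 probe set here.

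Both partners of the anaphase promoting complex were higher with FGF2. Ube2c, its ubiquitin-conjugating enzyme, had 1360, 1251, 2198 and 1634, which is 1.62-fold above untreated with FGF2 alone and 1.31-fold above IL-17A with both. On the combined array it was 1.35-fold below FGF2 alone. Cdc20, the activator of the complex, had 1147, 1211, 1475 and 1557, 1.29-fold in both readings.

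The chromosomal passenger complex corrects faulty attachments and steers cytokinesis. Its kinase gene Aurkb had 204, 232, 327 and 354, which gave 1.60- and 1.52-fold, and was the 1 member at least 1.5-fold higher in both FGF2 readings (1.09% of measured genes). A second Aurkb probe set gave 176, 163, 197 and 198, with both FGF2 arrays again above the others and log2 ratios of 0.16 and 0.28. Birc5, survivin, had 761, 669, 910 and 885, and Cdca8, borealin, 852, 855, 962 and 1012, so all 3 genes had both FGF2 arrays above the others.

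At the kinetochore and its checkpoint, 4 of 7 genes showed the split. Bub1, a checkpoint kinase, had 335, 404, 526 and 492 (1.57- and 1.22-fold), Nuf2, a subunit of the microtubule-binding NDC80 complex, 288, 308, 426 and 405 (1.48- and 1.32-fold), and Cenpa, the centromeric histone, 677, 655, 770 and 765. Cenpe, a kinetochore motor, had 207, 182, 253 and 320, with 1.75-fold between the combined and IL-17A arrays, the largest single reading among the members. The others did not split by FGF2. Bub1b, BUBR1, had 144, 191, 163 and 196, high on both arrays with IL-17A, while its other probe set over the floor on all arrays was highest with FGF2 alone, at 125, 153, 197 and 151. Cenpf had 337, 215, 335 and 308, low with IL-17A alone, and Ndc80, close to the floor, 106, 122, 113 and 104.

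Spindle genes had 6 of 7 with both FGF2 arrays above both others. Tpx2, which activates Aurora A on the spindle, had 450, 459, 609 and 574, and Prc1, which bundles midzone microtubules, 652, 563, 815 and 768. For Tpx2 another probe set over the floor on all arrays gave 108.4, 166, 136.3 and 157.5, with no split (log2 0.33 and -0.08). Hmmr, a spindle and hyaluronan-binding protein, had 271, 388, 447 and 454, so that IL-17A alone was already 1.43-fold above untreated cells. The other Hmmr probe sets over the floor on all arrays did not repeat the order, at 162, 157, 194 and 159 and at 161, 224, 183 and 182. Kif20a, a midzone motor, read 1.30- and 1.11-fold, Kif2c, a centromeric microtubule depolymerase, 1.14- and 1.28-fold, and Nusap1, a spindle protein, 1.07- and 1.12-fold. Kif11, the bipolar spindle motor, had 116, 184, 154 and 171 and was lowest in untreated cells. The other Kif11 probe set over the floor on all arrays gave 135, 130, 130 and 174, where IL-17A alone was not above untreated cells.

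Replication and mitotic genes had similar medians in these ratios. The median of replication genes minus that of mitotic genes was 0.03 for FGF2 alone, 0.02 for both factors against untreated, -0.01 for both against IL-17A and 0.04 for both against FGF2. For IL-17A alone it was 0.08. Within a group the log2 ratios to untreated cells of FGF2 had an SD across genes of 0.18 for replication and 0.21 for mitotic genes, and 22 of 27 mitotic genes lay inside the range of the replication genes. Members that hold an E2F word but no CHR word had a median mean FGF2 log2 ratio of 0.32 (13 measured genes), those with a CHR word but no E2F word 0.23 (16 genes), those with both 0.48 (3 genes) and those with neither 0.38 (10 genes), with ranges that overlap.

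**Figure D4:**
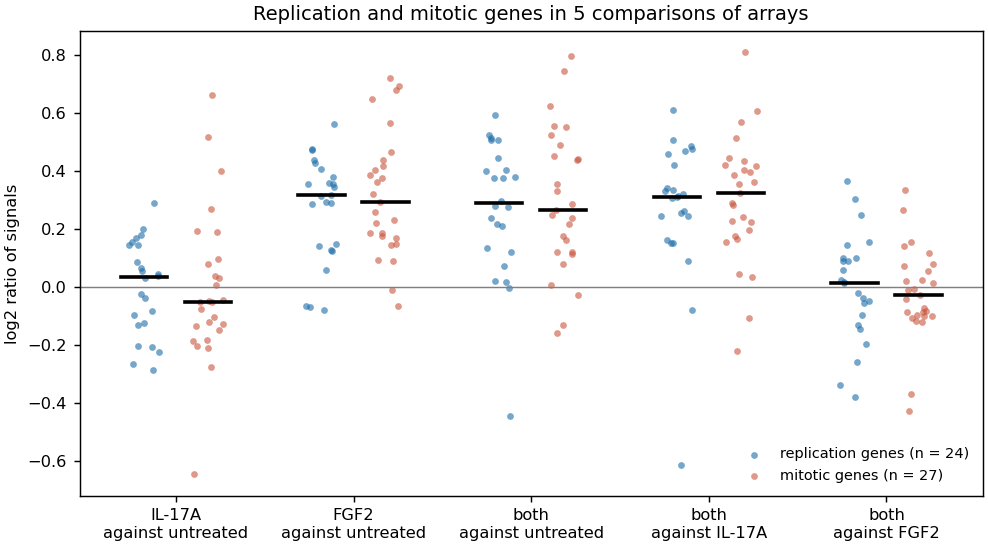
Log2 ratios of the 24 replication (blue) and 27 mitotic genes (red) in 5 comparisons of arrays; each point is a gene and each black bar the median of its group. The medians are between 0.26 and 0.32 in the 3 comparisons in which the first array had FGF2 and the second did not, and between -0.05 and 0.03 in the comparisons that differ by IL-17A.

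IL-17A alone left these genes near the level of untreated cells. The medians were 0.03 for replication and -0.05 for mitotic genes, and in the presence of FGF2 0.01 and -0.03. At least 25% above untreated cells with IL-17A were 3 of 51 members (5.8% of measured genes), Kif11 (1.58-fold, in 1 of its probe sets), Hmmr (1.43-fold) and Bub1b (1.32-fold), and 1 of 51 was at least 20% below (8.58%), Cenpf at 1.57-fold lower. Against FGF2 alone, the combined array was at least 25% higher in 2 of 51 (7.37%), Ccne1 and Cenpe, and at least 20% lower in 4 of 51 (7.82%), Rrm1, Fen1, Ube2c and Kif20a. Both arrays with IL-17A were above both without it in 4 members, Rfc4, Ccne1, Bub1b and Kif11 (13% of measured genes), and below in 3, Mcm4, Ccnb2 and Cenpf (14.6%).

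Departure from the sum of the single factors was then measured. The interaction (log2 both minus IL-17A minus FGF2 plus untreated) had a median of 0.055 in replication and 0.02 in mitotic genes, with an SD across genes of 0.23 and 0.25. All measured genes had a median of 0.02 and an SD of 0.30. Divided by the square root of 2, to put it on the scale of the yardstick, the interaction passed the 95th percentile of its brightness class in 0 of 51 members. By construction about 5% of all measured genes pass it (615 of 12258). The yardstick is this same quantity over all measured genes, so the count sets members beside other genes and does not separate interaction from error. The widest interactions, not divided, were Fen1 (-0.55), Cenpf (0.53), Cenpe (0.52), Kif11 (-0.51) and Hmmr (-0.50). In 7 members the FGF2 readings had opposite signs (Gins2, Rfc4, Ccne2, Ccnb2, Cenpf, Kif11 and Ndc80), and in none, 0 of the 7, were both beyond the yardstick SD.

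Other cell cycle genes were read from 4 further lists. Of 38 measured further replication genes, 17 had both FGF2 arrays above the others (24.6% of measured genes) and 2 below (24.2%). The median log2 ratios of this list were 0.11 with FGF2 alone and 0.12 in the presence of IL-17A. Exo1, an exonuclease of repair, had 148, 140, 221 and 246, Pole, the leading-strand polymerase, 222, 220, 341 and 347, and Blm, a helicase, 141, 124, 188 and 213. The lowest of this list was Prim2, the large primase subunit, at 1120, 913, 688 and 581, opposite to Prim1, followed by Rfc2 and Rpa3, whose mean FGF2 log2 ratios were -0.10 and -0.05. Of 45 measured further mitotic genes, 25 were above (24.6% of measured genes) and 4 below (24.2%), with medians of 0.22 in both readings. Pbk (745, 759, 1075 and 1110) and Cdca5, sororin (310, 273, 390 and 439), led with Ska1, while Troap, Psrc1 and Nek2 were lowest, Nek2 with 287, 263, 202 and 230.

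The lists of G1 genes and of inhibitors and quiescence genes differed less. Of 17 measured G1 cyclins, kinases and E2F partners, 6 had both FGF2 arrays above (24.6% of measured genes) and 2 below (24.2%). The medians of this list were 0.09 and 0.05. Ccnd1, cyclin D1, had 5717, 6225, 6012 and 6069, and Myc 3061, 3338, 3249 and 3631. E2f7, Cdk4 and E2f3 were highest in this list, Cdk4 with 1822, 1761, 2200 and 2180, and Ccnh, Ccnd2 and Cdk7 lowest. Of 21 measured inhibitors and quiescence genes, 3 were above (24.6% of measured genes) and 6 below (24.2%, a share near that of the list). The medians were -0.08 and -0.07. Rbl2, p130, had 383, 364, 312 and 292, and Gadd45b and Gadd45a were the next lowest, while Fzr1, Cdkn2b and Rbl1 were highest. Cdkn1a, p21, had 7664, 7547, 6691 and 7890.

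The labelled cell type was checked against markers, and RNA of other cells was present. General epithelial markers were all measured (11 of 11), with Cdh1 between 16600 and 18800, and had medians of 0.12 and 0.07 in the FGF2 readings. Some fibroblast and smooth muscle markers had signals of similar size, with Vim between 18250 and 23060 and Col3a1 between 14100 and 19760. The stem cell markers Lgr5, Ascl2 and Olfm4 were under the floor on every array, and the 10 measured crypt stem and transit markers had medians of 0.09 and 0.11. By mean FGF2 log2 ratio the highest of these was Smoc2 (930, 1056, 1468 and 1166) and the lowest Prom1 (8927, 8019, 8108 and 7827). Endothelial markers had both FGF2 arrays above the others in 10 of 13 genes (24.6% of measured genes). Their medians were 0.36 and 0.56 and their summed signals 11873, 10970, 15221 and 16460. Emcn, an endothelial sialomucin and among the highest of them, had 2065, 2063, 3422 and 3504. Tek, Tie1 and Eng were lowest by mean FGF2 log2 ratio and showed no split. Eng was lower in both FGF2 readings (log2 -0.07 and -0.10). Fibroblast and smooth muscle markers were below in 11 of 15, against 24.2% of measured genes (medians -0.39 and -0.52, sums of 106993, 111923, 91583 and 93715). In that list Vim (18250, 19040, 22140 and 23060) and Pdgfrb (5553, 5141, 6049 and 6076) had both FGF2 arrays above the others. Dcn was higher in both FGF2 readings (log2 0.26 and 0.27). Enterocyte markers had medians of -0.45 and -0.43 (12 measured, sums of 35544, 21149, 27835 and 16252). Goblet cell markers were below in 7 of 10 (24.2% of measured genes), with medians of -0.44 and -0.35. Of 15 haematopoietic markers 9 were measured, with 3 below and 1, Cd14, above (24.6%). Their medians were -0.22 and -0.13, and Cd14 had 862, 1318, 2640 and 3081. Cd3e, Cd79a and Itgam were under the floor on every array. Summed signals of the members were 44906, 43587, 55073 and 54161. The part of these cell types in the cell cycle result was not tested, and in RNA of a whole culture more dividing cells and more RNA per dividing cell cannot be told apart.

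**Figure D5:**
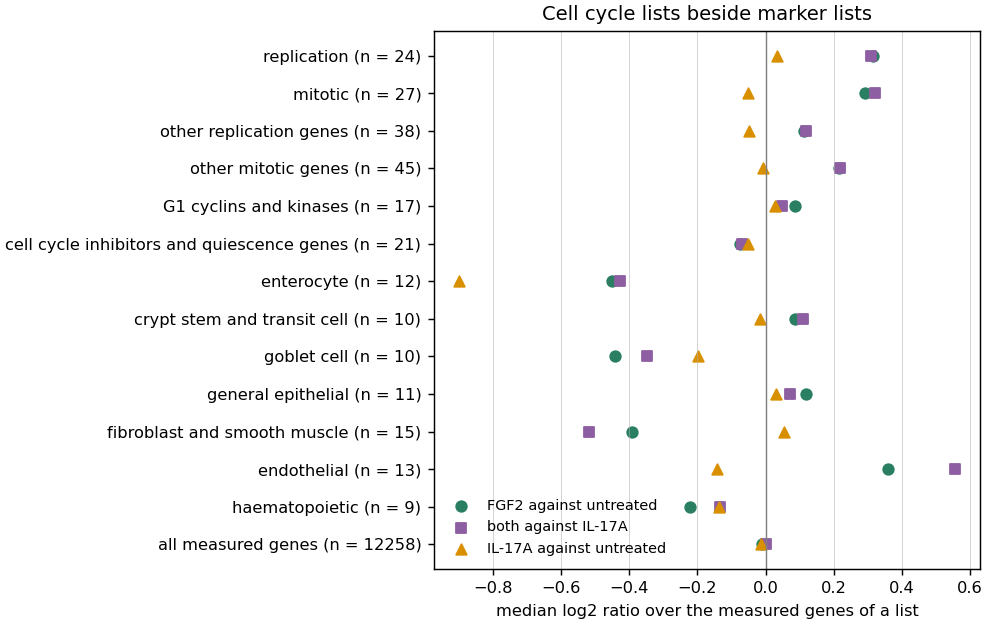
Median log2 ratio of each gene list for FGF2 against untreated (circles), both factors against IL-17A (squares) and IL-17A against untreated (triangles), with the number of measured genes beside each name. The replication and mitotic lists lie near 0.3 in both FGF2 readings and near 0 with IL-17A; endothelial markers are as high or higher with FGF2, and fibroblast, goblet and enterocyte markers are lower.

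Arrays were alike in scale, with antilog signals at a trimmed mean of 500 on each, and 3′ to 5′ signal ratios of the Actb control probe sets of at least 1.18 and at most 1.248. The 12 poly-A spike control probe sets had a mean log2 signal of 8.60 on the FGF2 array and 9.08 to 9.48 on the others. The part of these differences between arrays in the cell cycle result was not tested.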

How the data were processed

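The authors deposited log2 signals, 1 per probe set and array, summarised with MAS5 per the submitters' processing notes (no version is given in the sources used here). That method corrects for mismatch probes, and dim values are noisy. Control probe sets (64 of 45101) were left out. Symbols came from the platform annotation; the 34958 probe sets with 1 symbol gave 18193 genes, each read from the probe set with the highest mean. Signals under the floor (log2 6.49) were raised to it, and 12258 genes over it on at least 1 array are called measured. All ratios are log2 differences between 2 arrays. With 1 array per group no test was run; an additive fit would leave 1 residual degree of freedom, which is the interaction used as the yardstick (its SD divided by the square root of 2). Calls are ratios at least 25% higher (or 20% lower, the same fold), 1.5-fold or 2-fold. Named genes were all members, and per further cell cycle list the 3 highest and 3 lowest by mean FGF2 log2 ratio. Ccnd1, Myc and Cdkn1a were named as background. Of the cell type lists only some markers were named, and the rest enter through the medians of their lists. Members, lists, motifs and thresholds were chosen with earlier results of these data known. Alternatives were other scalings, floors, probe set choices and folds. Python 3.11.15, numpy 2.4.6 and pandas 2.3.3 were used, and the code was tested on simulated arrays.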

Additional observations from a re-analysis of the deposited data

How the results depend on the processing

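The number of arrays, 1 per group, limits every value here, and signal over background limits the dimmer members. Of 188 values recomputed under alternatives, 161 moved by less than 0.1 on the log2 scale or, for counts, stayed within 1.5 times, and 27 moved further. The medians of replication and mitotic genes in the 3 comparisons with FGF2 were above 0 in all 48 recomputed values, from 0.18 to 0.35, the lowest being that of replication genes for FGF2 against untreated with the mean of all probe sets (0.18, replication minus mitotic -0.0757). Without probe sets that can detect related transcripts (41 members measured), replication genes with IL-17A alone had a median of -0.14, and replication minus mitotic was -0.0846. Members at least 25% higher were counted for FGF2 alone, both against untreated and both against IL-17A. With the 75th percentile of signals as the floor (29 members measured) they numbered 11, 8 and 12 (6.34%, 8.80% and 6.71% of measured genes). Without those probe sets they numbered 15, 14 and 15 (9.49%, 10.6% and 9.99%). Both against untreated gave 15 with the mean of all probe sets (10.5%). At 1.5-fold the counts for the 3 comparisons were 4, 4 and 3 (2.34%, 3.34% and 2.8% of measured genes). At 2-fold they were 0, 0 and 0. With IL-17A alone the count was 1 at 1.5-fold and 0 at 2-fold or with the higher floor. For both against FGF2 it was 4 under quantile normalization and 0 with the higher floor, with the floor added to signals, at 1.5-fold and at 2-fold. Members with both FGF2 arrays above the others were 24 of 29 with the higher floor, where 29.8% of measured genes were, and those with both IL-17A arrays above were 1. With the mean of all probe sets, members with both FGF2 arrays above were 28 of 48 (20.0% of measured genes), and without probe sets that can detect related transcripts 28 of 41 (23.7%), against 40 of 51. The fewer measured members account for the lower counts under the higher floor and without those probe sets in part; other causes were not tested. No paired analysis was possible because each group has 1 array and no replicate number is shared between groups. An added reading of every member probe set over the floor on all arrays, chosen after seeing the data, gave medians of 0.29 and 0.29 for FGF2 against untreated and 0.31 and 0.27 for both against IL-17A.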
